A study of Arabidopsis thaliana with 9 samples.

Results

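The 142 genes described here are those whose description in the deposited gene annotation reads cysteine/histidine-rich C1 domain family protein, out of 37547 genes listed for each library. They were measured by strand-specific RNA-seq in roots of wild-type Arabidopsis thaliana of the Col-0 accession, in 3 groups of 3 libraries. Control plants grew with 0.5 mM KCl, low potassium plants with 0.025 mM KCl, and cesium plants with 0.5 mM KCl plus CsCl, given in the labels as 0.3 of a unit written mL. All groups shared the genotype, the agarose medium and its sucrose. The comparisons ask how the roots' transcripts respond to a shortage of potassium and to cesium, an ion that resembles potassium and enters roots through potassium transporters. The titles number the libraries of a group as bio reps, and nothing more is said of separate cultures or harvests, so p-values measure the spread between the libraries as labelled.

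The C1 domain is a small fold in which cysteines and histidines hold zinc ions. It is best known from animal protein kinase C, where it binds the membrane lipid diacylglycerol and the phorbol esters that mimic it. Plants lack protein kinase C, and their many divergent C1 genes, often called DC1 genes, have few members of known function. Of the 142 genes here, 3 carried a gene symbol in the RefSeq annotation of TAIR10.1: EDA11 (AT1G55420), MEE53 (AT4G10560) and ULI3 (AT5G59920), the last named for UV-B light insensitivity.

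The label was checked against the coding sequences of the TAIR10.1 genome. The pattern searched was cysteine, 2 residues, cysteine, 5 to 16 residues, cysteine, 2 residues, cysteine, 4 residues, histidine, 2 residues and cysteine. It occurred in 138 of the 142 members (97.2%) and in 212 of all 27422 protein-coding genes (0.773%), 74 of which were not members. A member held a median of 3 copies and at most 8. Members were long genes with little splicing, since 112 of 142 (78.9%) had 1 coding exon, against 23.3% of all protein-coding genes, and their median coding length was 624.5 codons against 348. Cysteine made up a median of 8.36% of a member's residues against 1.68% over all protein-coding genes, and histidine 5.88% against 2.14%.

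One copy of the pattern is shown for each of 6 members with large changes in the comparisons described further on. Sequences are coding strand, 5′ to 3′, from the RefSeq TAIR10.1 genome, and capitals mark the cysteine and histidine codons of the pattern. AT2G44380 (chr2:18323983-18324060, minus strand) and AT1G20990 (chr1:7331605-7331682, minus strand) rose in low potassium. AT5G40590 (chr5:16251981-16252058, minus strand) and AT1G44050 (chr1:16739906-16739986, plus strand) fell there. AT4G14980 (chr4:8563437-8563511, minus strand) and AT5G43520 (chr5:17485826-17485903, minus strand) fell in both treatments, as did AT1G44050.
AT2G44380: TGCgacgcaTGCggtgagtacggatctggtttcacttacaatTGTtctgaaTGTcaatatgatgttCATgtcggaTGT
AT1G20990: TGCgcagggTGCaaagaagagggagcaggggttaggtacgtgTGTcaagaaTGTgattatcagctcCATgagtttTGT
AT5G40590: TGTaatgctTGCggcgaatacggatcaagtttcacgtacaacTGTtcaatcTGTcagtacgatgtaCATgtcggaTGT
AT1G44050: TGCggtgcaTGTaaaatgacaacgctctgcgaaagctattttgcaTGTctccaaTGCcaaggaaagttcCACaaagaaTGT
AT4G14980: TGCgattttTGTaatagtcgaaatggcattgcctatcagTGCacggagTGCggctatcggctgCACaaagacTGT
AT5G43520: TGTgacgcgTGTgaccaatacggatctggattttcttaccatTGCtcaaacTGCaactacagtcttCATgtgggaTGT

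**Figure D1:**
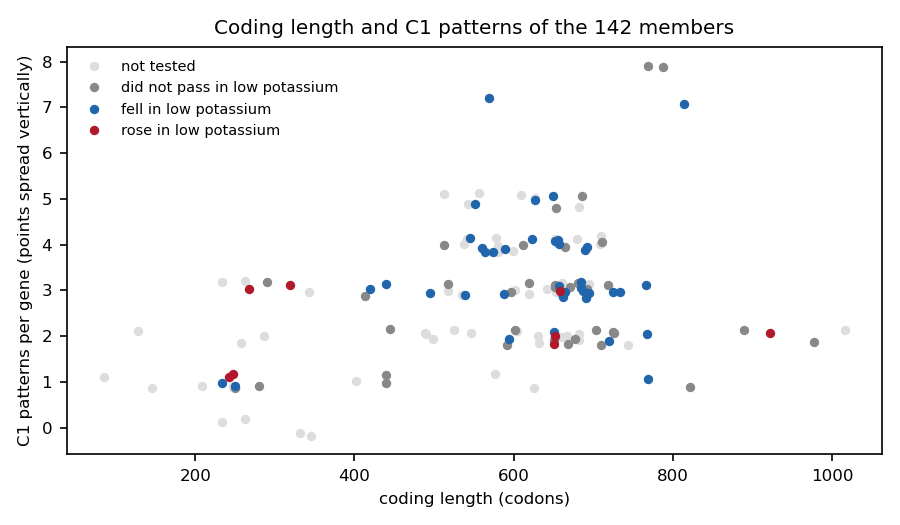
Coding length in codons (x axis) against the number of C1 patterns (y axis, points spread vertically so that they can be told apart) for the 142 members, coloured by their call in low potassium. The genes that fell had a median of 652 codons and 3 patterns, and those that rose had 485 codons and 2 patterns.

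Most members were weakly expressed in roots. Their values are FPKM, fragment numbers scaled to transcript length and to the fragments mapped in a library, so levels can be set side by side between genes. Over the 9 libraries, 13 members had a mean of at least 10 FPKM, 71 lay from 1 to under 10, and 58 lay under 1. Of these 58, 8 were listed at 0 in every library. The 84 members with a mean of at least 1 FPKM entered the tests, and the others are given as levels only.

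The most abundant member was AT2G44380, with a mean of 53.7 FPKM, and the next 5 were AT2G42060, AT5G40590, AT2G44370, AT4G02540 and AT5G54040. These 6 genes held 31.0% to 35.1% of the members' summed FPKM in control, 44.2% to 46.5% in low potassium and 27.0% to 34.5% in cesium. The low potassium libraries thus all lay above the other groups in the share held by these 6 genes. The 6 were ranked by the mean over all 9 libraries, which includes those of low potassium. The summed level of all 142 members was 495, 552 and 613 FPKM in the control libraries, 556, 494 and 482 in low potassium, and 488, 464 and 392 in cesium. Control and low potassium overlapped in this sum, and all cesium libraries lay below all control libraries. The members with a mean under 10 FPKM behaved otherwise, for their sum was 248 to 281 FPKM in control, 174 to 209 in low potassium and 216 to 233 in cesium, with no overlap between any of the groups. The number of members at 1 FPKM or more was 85 to 92 in control, 64 to 72 in low potassium and 76 to 87 in cesium.

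Some libraries stood lower than their group mates across the members. Control replicate 1 gave the lowest control value for 63.1% of the tested members, against 36.8% of all tested genes, and cesium replicate 3 gave the lowest cesium value for 54.8%, against 41.1%. Low potassium replicate 1 gave the lowest value of its group for 7.14%, against 32.2%. For 17 members the deposited region is wider than the gene itself in TAIR10.1, which makes their values less certain. AT3G27473 and AT3G27480 were given the same region, chr3:10169123-10175604, which spans both genes. Whether the other regions take in a neighbouring gene was not tested. Of these 17 members, AT2G42060, AT2G02630, AT2G28460, AT3G26240, AT3G50010, AT4G02540 and AT5G42280 are among the genes named in other passages. A near-identical copy, with at least 95% identity over at least 80% of the coding sequence, was found for 3 members, 1 of which was tested.

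In low potassium many of the C1 genes fell and a smaller number rose, among them the pair with the highest mean over the 9 libraries. By limma on log2(FPKM + 1), with Benjamini-Hochberg adjusted p under 0.05 over all 19536 tested genes, 39 of the 84 tested members were lower than control (46.4%), against 18.8% of all tested genes. Higher values were called for 8 members (9.52%), against 18.8% of all tested genes, and in either direction 37.6% of all tested genes passed. The median change of the 84 members was −0.35 on the log2 scale, against 0.0018 over all tested genes, and 73.8% of the members had a negative change against 49.7% of all genes. The 39 that fell did so by a median log2 change of −0.73, within −2.11 to −0.45, and the 8 that rose did so by 0.295 to 1.92. Leaving out control replicate 1, control replicate 2 or low potassium replicate 1 brought the count of higher members to 4, 5 and 4.

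**Figure D2:**
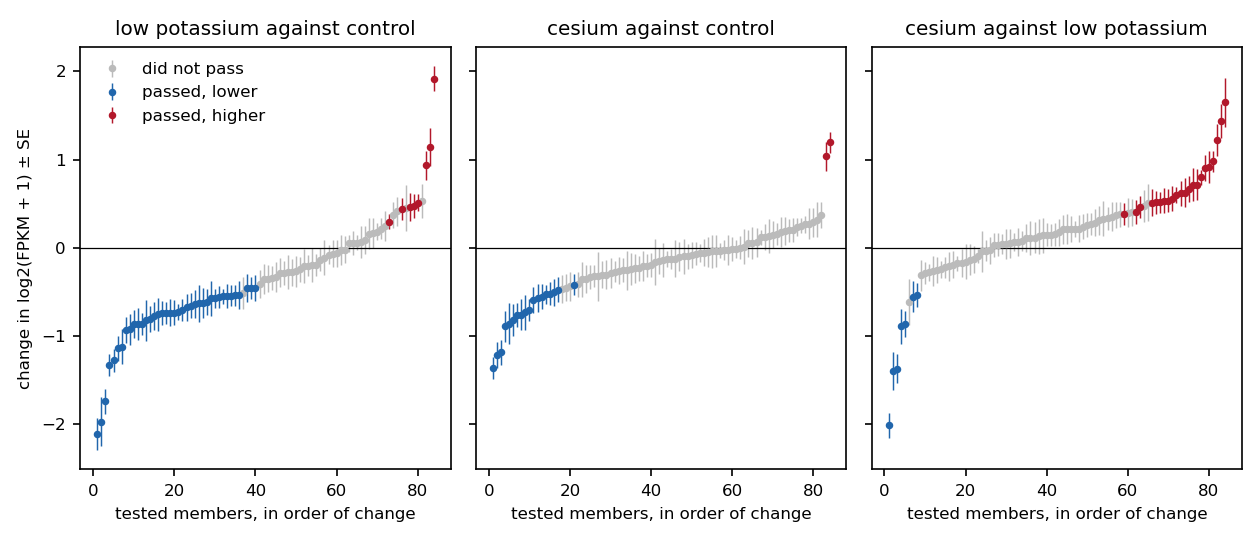
Change in log2(FPKM + 1) with its standard error (y axis) for each of the 84 tested members, ordered by change (x axis), in the 3 comparisons, with members that passed in red (higher) and blue (lower). In low potassium 39 passed below 0 and 8 above it, and in cesium against control 18 passed below and 2 above.

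The calls were also read by level. Of the 62 members with a mean of 1 to under 5 FPKM, 31 fell in low potassium (50.0%) and 2 rose, while among all genes of that level 15.6% were lower and 14.5% higher. Of the 9 members from 5 to under 10 FPKM, 4 fell and 3 rose, where 16.7% and 19.2% of all genes of that level did so. Of the 13 members at 10 FPKM or more, 4 fell and 3 rose, where 20.7% and 20.4% of all genes of that level did so. Below the tested range, 50 members had a mean above 0 and under 1 FPKM. All low potassium libraries lay below all control libraries for 25 of these 50 and above them for 3, while 10.5% and 7.41% of the genes of that level did so. For the 84 tested members these counts were 48 below and 13 above, against 27.8% and 28.1% of all tested genes. The groups thus did not overlap for 61 of the 84, against 55.9% of all tested genes.

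**Figure D3:**
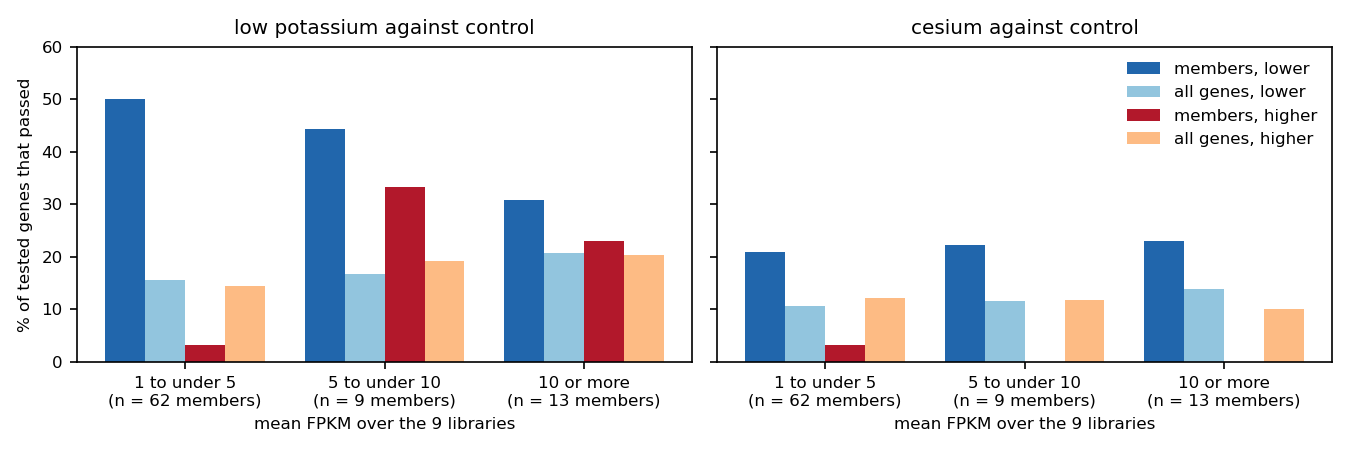
Percent of tested genes that passed in low potassium (left) and in cesium (right) against control, by mean FPKM over the 9 libraries, for the members (dark bars) and for all tested genes of the same level (light bars), with lower calls in blue and higher calls in red (members) or orange (all genes). In low potassium 50.0% of the 62 members with a mean of 1 to under 5 FPKM fell, against 15.6% of all genes of that level.

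Of the members that fell, AT1G44050 had the largest change. Its level was 4.73, 6.69 and 7.12 FPKM in control, 0.748, 0.777 and 0.419 in low potassium, and 3.40, 3.04 and 2.16 in cesium. The 3 groups did not overlap, with low potassium lowest and cesium between. The log2 change in low potassium was −2.11 ± 0.18 (SE, adjusted p = 4.16e-05).

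AT5G40590 was among the most abundant members in control and lost that place in low potassium. It stood at 28.4, 39.1 and 51.9 FPKM in control, at 11.1, 10.3 and 6.51 in low potassium, and at 41.7, 32.3 and 21.4 in cesium. Cesium libraries overlapped with control, and low potassium lay below both groups. The log2 change in low potassium was −1.97 ± 0.28 (SE, adjusted p = 0.000708).

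AT4G14980 held 8.79, 8.09 and 7.90 FPKM in control and 2.36, 1.49 and 1.53 in low potassium, a log2 change of −1.74 ± 0.14 (SE, adjusted p = 3.54e-05). AT5G43520 held 17.3, 20.8 and 22.9 FPKM in control and 7.95, 8.09 and 6.40 in low potassium, a log2 change of −1.33 ± 0.12 (SE, adjusted p = 6.33e-05). AT3G13760 held 17.6, 16.6 and 19.4 FPKM in control and 7.96, 6.001 and 6.52 in low potassium, a log2 change of −1.27 ± 0.13 (SE, adjusted p = 0.000129). In each of these genes every low potassium library lay below every control library. AT5G42280 also fell, from 5.91, 5.60 and 6.58 FPKM in control to 3.34, 3.09 and 3.29 in low potassium (log2 change −0.73 ± 0.089 SE, adjusted p = 0.000321). Its deposited confidence bounds ran from 0 to 13.7 FPKM over the 9 libraries. AT3G07000 fell from 4.76, 4.99 and 5.74 FPKM to 2.28, 1.95 and 1.26 (log2 change −1.14 ± 0.14 SE, adjusted p = 0.000358).

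AT1G20990 had the largest rise. Its level was 1.69, 1.78 and 2.62 FPKM in control, 8.94, 11.0025 and 11.2 in low potassium, and 2.05, 1.83 and 1.56 in cesium. The low potassium libraries stood far above the others, and cesium overlapped with control. The log2 change in low potassium was 1.92 ± 0.14 (SE, adjusted p = 2.27e-05).

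The pair of members with the highest mean over the 9 libraries rose as well. That mean includes the low potassium libraries. In control alone AT5G40590, which fell, had the highest mean, at 39.8 FPKM, above AT2G44380 at 39.3. AT5G54040, at 31.5 FPKM in control, stood above AT2G42060 at 24.9. AT2G44380 stood at 35.7, 37.7 and 44.7 FPKM in control, at 92.5, 83.4 and 87.2 in low potassium, and at 46.5, 34.5 and 21.6 in cesium. AT2G42060 stood at 20.6, 25.9 and 28.3 FPKM in control, at 51.8, 43.6 and 49.3 in low potassium, and at 21.2, 20.1 and 13.6 in cesium. For both genes the low potassium libraries lay above all others. The log2 change in low potassium was 1.14 ± 0.22 for AT2G44380 (SE, adjusted p = 0.0035) and 0.93 ± 0.17 for AT2G42060 (SE, adjusted p = 0.00237).

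The other 5 members that rose did so by less. AT3G26240 went from 3.31, 3.41 and 3.38 FPKM in control to 5.14, 4.98 and 5.59 in low potassium, a log2 change of 0.51 ± 0.097 (SE, adjusted p = 0.00331). AT2G16050 went from 6.21, 6.03 and 4.91 FPKM to 8.23, 9.67 and 6.96 (adjusted p = 0.0482). The remaining 3, AT4G01740, AT4G01910 and AT4G01920, lie near each other on chromosome 4 and rose by 0.295, 0.47 and 0.44 on the log2 scale, with adjusted p of 0.0209, 0.0213 and 0.0215. The call for AT4G01740 was lost without control replicate 1 or 2 or low potassium replicate 1 or 3, its adjusted p ranging from 0.0175 to 0.0688 over all alternatives. That for AT4G01910 was lost without control replicate 1 or 2 or low potassium replicate 1 or 2, with a range of 0.00355 to 0.0764.

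Cesium brought fewer calls, most of them also decreases. Of the 84 tested members, 18 were lower than control (21.4%), against 12.7% of all tested genes, and 2 were higher (2.38%), against 10.8%. In either direction 23.5% of all tested genes passed. The median log2 change was −0.14 against 0.020 over all tested genes, and the members that fell did so by −1.36 to −0.42. Of the 62 members at 1 to under 5 FPKM, 13 fell (21.0%) and 2 rose, against 10.6% and 12.1% of all genes of that level. Of the 9 at 5 to under 10 FPKM 2 fell and 0 rose, against 11.6% and 11.7%, and of the 13 at 10 FPKM or more 3 fell and 0 rose, against 13.8% and 10.0%. All cesium libraries lay below all control libraries for 16 of the 50 members with a mean above 0 and under 1 FPKM and above them for 4, against 7.16% and 8.15% of the genes of that level. Among the 84 tested members cesium and control did not overlap for 37, against 41.1% of all tested genes. The count of lower members was 10 without control replicate 2, 11 without control replicate 3 and 11 without cesium replicate 1, and that of higher members was 4 without cesium replicate 3.

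Cesium and low potassium were compared with the same 3 control libraries, so their changes are not independent, and each comparison's own values are given side by side. AT5G43520 fell in both treatments. Its cesium libraries stood at 7.77, 7.26 and 6.75 FPKM, a log2 change from control of −1.36 ± 0.12 (SE, adjusted p = 9.19e-05). Between cesium and low potassium its log2 difference was −0.033 (adjusted p = 0.853). AT5G54020 also fell in both, with 8.02, 9.01 and 9.55 FPKM in control, 5.35, 4.01 and 4.01 in low potassium and 4.46, 4.97 and 5.66 in cesium. AT5G54020 fell by 0.71 ± 0.12 in cesium (SE on the log2 scale, adjusted p = 0.00342) and by 0.86 ± 0.12 in low potassium (adjusted p = 0.000816).

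AT5G54040, a strongly expressed member near AT5G54020 on chromosome 5, passed in cesium and not in low potassium. The authors' deposited table, described further on, calls it lower in low potassium as well (q = 0.0308). Its level was 25.2, 31.3 and 38.1 FPKM in control, 25.8, 22.5 and 24.5 in low potassium, and 12.9, 14.9 and 10.95 in cesium. The cesium libraries lay below all others. The log2 change in cesium was −1.22 ± 0.15 (SE, adjusted p = 0.000504), and that in low potassium was −0.35 ± 0.15 (adjusted p = 0.0928), where the call was made without control replicate 1 (range over alternatives 0.0298 to 0.294). The direct comparison gave a log2 difference of −0.87 ± 0.15 between cesium and low potassium (adjusted p = 0.00209). AT3G45840 and AT1G65180 also passed in cesium and not in low potassium. AT3G45840 had a mean of 5.44 ± 1.54 FPKM in control and 2.61 ± 0.51 in cesium (SD, n = 3). AT1G65180 had 3.62 ± 0.18 and 2.48 ± 0.45. The direct comparison of cesium with low potassium passed for AT3G45840. It did not pass for AT1G65180, whose cesium and low potassium libraries overlapped.

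The 2 members that rose in cesium were weakly expressed. AT1G69150 stood at 1.15, 1.25 and 1.06 FPKM in control, at 1.51, 1.39 and 1.61 in low potassium, and at 4.02, 3.45 and 4.39 in cesium. AT5G22355 stood at 1.76, 2.48 and 1.86 FPKM in control, at 3.40, 3.55 and 2.23 in low potassium, and at 6.06, 5.07 and 4.54 in cesium. In both genes the cesium libraries were the highest, and for AT5G22355 the low potassium libraries overlapped with control. The log2 change in cesium was 1.20 ± 0.12 for AT1G69150 (SE, adjusted p = 0.000145) and 1.04 ± 0.16 for AT5G22355 (SE, adjusted p = 0.00191). The closest copy of AT1G69150 in the genome is the member AT3G43890, at 88.9% identity, whose mean was under 1 FPKM. AT3G43890 was listed at 1.72, 1.52 and 1.58 FPKM in control, at 0.315, 0.085 and 0.203 in low potassium, and at 1.03, 0.822 and 0.774 in cesium.

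Set against each other, the treatments separated 29 of the 84 members, where 34.2% of all tested genes passed. Cesium was higher than low potassium for 22 (26.2%), against 16.7% of all tested genes, and lower for 7 (8.33%), against 17.4%. At 1 to under 5 FPKM, 17 of the 62 members were higher and 2 lower, against 16.6% and 10.4% of all genes of that level. At 5 to under 10 FPKM 2 of the 9 were higher and 0 lower, against 15.6% and 15.0%. At 10 FPKM or more lower calls outnumbered higher ones. Of the 13 members there, 3 were higher and 5 lower, against 17.1% and 21.0% of all genes of that level. Both shares of the members thus lay above those of all genes. These levels are means over all 9 libraries, low potassium included. The libraries did not overlap for 39 of the 84, against 47.2% of all tested genes, and of the 50 members with a mean above 0 and under 1 FPKM 14 lay wholly higher and 4 wholly lower in cesium, against 9.82% and 6.25%. This comparison and that of low potassium with control use the same low potassium libraries. The 7 included AT1G20990 (log2 difference −2.01 ± 0.14, adjusted p = 1.88e-05), AT2G44380 (−1.40 ± 0.22, adjusted p = 0.00132), AT2G42060 (−1.37 ± 0.17, adjusted p = 0.000314) and AT4G01910 (−0.54, adjusted p = 0.0127). The call for AT4G01910 was lost without low potassium replicate 1, its adjusted p ranging from 0.0107 to 0.0502 over all alternatives. AT2G44370 was also lower in cesium than in low potassium, by −0.89 ± 0.20 (adjusted p = 0.00724), while its change in low potassium had an adjusted p of 0.0576 and ranged from 0.0198 to 0.172 over the alternatives.

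AT2G02630 and AT3G50010 are examples of the 22. AT2G02630 stood at 4.54, 5.02 and 5.64 FPKM in control, at 2.97, 1.57 and 1.11 in low potassium, and at 6.59, 6.33 and 6.72 in cesium. AT3G50010 stood at 6.73, 6.24 and 6.59 FPKM in control, at 4.56, 3.79 and 4.09 in low potassium, and at 7.94, 7.90 and 7.95 in cesium. In both genes the groups followed 1 order without overlap, low potassium lowest and cesium highest. The deposited confidence bounds were wider than this spread. Over the 9 libraries they ran from 0.0691 to 10.5 FPKM for AT2G02630 and from 0 to 17.0 for AT3G50010. The fall in low potassium passed for each (adjusted p = 0.00224 and 0.00127), whereas the difference between cesium and control did not (adjusted p = 0.273 and 0.0638). The direct log2 difference between cesium and low potassium was 1.44 ± 0.20 for AT2G02630 (adjusted p = 0.000623) and 0.80 ± 0.086 for AT3G50010 (adjusted p = 0.000179).

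AT1G44050, AT4G14980 and AT3G13760, which were below control in both treatments, were lower in low potassium than in cesium. For AT1G44050 the log2 difference was 1.22 ± 0.18 (adjusted p = 0.000872), for AT4G14980 it was 0.55 (adjusted p = 0.0143) and for AT3G13760 it was 0.51 (adjusted p = 0.0147). The calls for AT4G14980 and AT3G13760 were lost without low potassium replicate 2 or cesium replicate 2, with ranges of adjusted p of 0.00628 to 0.0553 and 0.00378 to 0.0593.

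**Figure D4:**
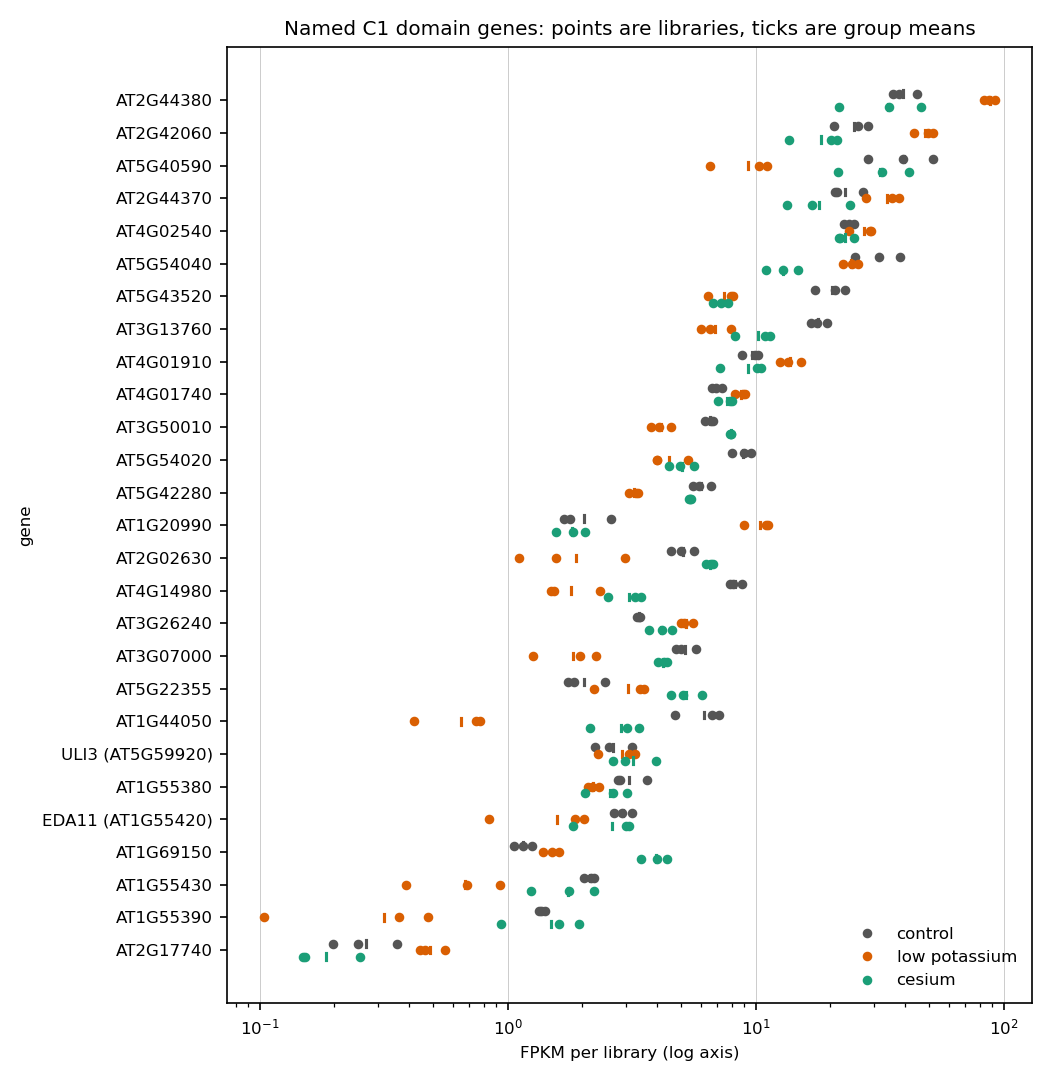
FPKM of the 27 named members in each library (x axis, log scale), with points for libraries and ticks for group means, in control (grey), low potassium (orange) and cesium (green). AT1G20990, AT2G44380 and AT2G42060 have their low potassium points to the right of all others, and AT1G44050 and AT5G40590 have theirs to the left.

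Several members without a call stand among the best known or most abundant. ULI3 stood at 2.26, 2.56 and 3.18 FPKM in control, 3.09, 2.32 and 3.26 in low potassium and 3.98, 2.97 and 2.65 in cesium. Its libraries overlapped between all groups, with adjusted p of 0.702 in low potassium and 0.412 in cesium. AT4G02540, at 21.7 to 29.2 FPKM over the 9 libraries, did not pass in any comparison. AT2G17740 had a mean under 1 FPKM and was not tested, with values of 0.198 to 0.357 FPKM in control, 0.443 to 0.559 in low potassium and 0.150 to 0.254 in cesium.

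Members often lie side by side in the genome. They were spread over chromosomes 1 to 5 as 24, 37, 27, 21 and 33 genes, and 58 of the 142 stood in 23 runs of at least 2 members with no other protein-coding gene between them. Neighbours differed in level. In the run from AT2G44370 to AT2G44400 on chromosome 2 the 4 genes had mean levels of 24.9, 53.7, 0.92 and 0.059 FPKM. Of the 37 run members that were tested, 20 fell and 3 rose in low potassium, and of the other 47 tested members 19 fell and 5 rose. Among all tested genes 18.8% fell and 18.8% rose there.

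The longest run held 5 members, from AT1G55380 to AT1G55440 on chromosome 1, 4 of which were tested. In low potassium 3 of them fell and in cesium none passed. AT1G55430 went from 2.03, 2.24 and 2.17 FPKM in control to 0.934, 0.687 and 0.390 in low potassium, a log2 change of −0.93 ± 0.17 (SE, adjusted p = 0.00294). AT1G55390 went from 1.42, 1.36 and 1.34 FPKM to 0.366, 0.479 and 0.104, a log2 change of −0.86 ± 0.18 (SE, adjusted p = 0.00586). EDA11, named for an arrest of embryo sac development, went from 2.88, 2.69 and 3.16 FPKM to 2.04, 1.86 and 0.843, a log2 change of −0.63 ± 0.21 (SE, adjusted p = 0.0386). The EDA11 call was lost without any 1 of the control libraries, without low potassium replicate 2 or 3, and with no filter on low values, its adjusted p ranging from 0.0209 to 0.116 over all alternatives. AT1G55380, the closest copy of EDA11 at 92.7% identity over 69.6% of the EDA11 coding sequence, had an adjusted p of 0.071. That value ranged from 0.0444 to 0.232 over all alternatives.

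For a pair of the abundant members the closest copy lay elsewhere in the genome. The closest copy of AT5G43520, which fell in low potassium, was AT2G44380, which rose, at 77.5% identity of coding sequence. The closest copy of AT5G40590, which fell, was AT2G44370, at 74.4%, whose change of 0.53 ± 0.20 on the log2 scale did not pass (adjusted p = 0.0576).

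Promoters were searched over the 250 bases before each annotated gene start, on both strands, for short motifs of plant transcription factors. The core of the W-box, TTGAC, to which WRKY factors bind, occurred in 81 of 142 member promoters (57.0%) and in 44.9% of all 27421 promoters. It was in 11 of the 13 members with a mean of at least 10 FPKM, in 22 of the 39 that fell in low potassium and in 4 of the 8 that rose. The core of the abscisic acid response element, ACGTG, occurred in 28.2% of member promoters against 22.9%, and the G-box CACGTG, which contains it, in 2.11% against 6.49%. The phosphate starvation motif GNATATNC occurred in 4.23% against 5.45%, the GCC-box GCCGCC in 2.11% against 1.87%, and the zinc deficiency core TGTCGACA in 1.41% against 0.263%, which is 2 members. The promoters of AT2G42060 and AT5G40590 are shown because these strongly expressed genes passed in opposite directions in low potassium while each window holds 3 matches to the W-box core. They lie at chr2:17547803-17548052 (plus strand) and chr5:16252435-16252684 (minus strand) of TAIR10.1, each 5′ to 3′ with capitals marking TTGAC or its reverse complement.
AT2G42060: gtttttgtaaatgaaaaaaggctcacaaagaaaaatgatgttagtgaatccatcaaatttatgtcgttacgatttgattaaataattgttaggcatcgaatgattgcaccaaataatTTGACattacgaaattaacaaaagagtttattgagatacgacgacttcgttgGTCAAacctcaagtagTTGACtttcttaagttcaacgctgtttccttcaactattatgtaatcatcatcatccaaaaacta
AT5G40590: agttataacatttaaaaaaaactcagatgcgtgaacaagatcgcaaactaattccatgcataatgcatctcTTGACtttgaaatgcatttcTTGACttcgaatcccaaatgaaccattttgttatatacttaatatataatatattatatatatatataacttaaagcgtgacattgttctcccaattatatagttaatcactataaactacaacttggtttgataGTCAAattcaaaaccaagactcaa

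Genes that supply zinc and that make or remove diacylglycerol were read beside the C1 genes, since the domain holds zinc and its animal form binds that lipid. Of 17 tested genes of zinc supply, 3 rose and 4 fell in low potassium, and 3 rose and 1 fell in cesium. Over all tested genes, 18.8% rose and 18.8% fell in low potassium, and 10.8% rose and 12.7% fell in cesium. Cesium was higher than low potassium for 7 and lower for 3, against 16.7% and 17.4% of all tested genes. The median log2 change of these genes was −0.13 in low potassium and 0.042 in cesium. In low potassium PCR2, a zinc exporter of the plasma membrane, went from 45.1 ± 5.14 to 113 ± 11.96 FPKM (SD, n = 3, adjusted p = 0.000258). ZIP3, a zinc uptake transporter, went from 37.9 ± 1.71 to 85.2 ± 4.51 FPKM (adjusted p = 0.000291). HMA4, which loads zinc into the xylem, rose in both treatments, from 33.5 ± 2.22 FPKM to 65.3 ± 6.06 in low potassium and 57.1 ± 7.31 in cesium (adjusted p = 0.000225 and 0.00121). Its relative HMA2 fell in cesium from 9.82 ± 0.622 to 3.30 ± 0.897 FPKM (adjusted p = 0.000402), and ZIP1 rose there from 14.4 ± 2.24 to 27.0 ± 3.74 FPKM (adjusted p = 0.00173).

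Of 16 tested genes of diacylglycerol metabolism, 2 rose and 2 fell in low potassium, against 18.8% and 18.8% of all tested genes. In cesium 1 rose and 2 fell, against 10.8% and 12.7%, and cesium against low potassium gave 2 higher and 2 lower, against 16.7% and 17.4%. Their median log2 change was −0.013 in low potassium and −0.062 in cesium. NPC4, a phospholipase that releases diacylglycerol from membrane lipids, fell in cesium from 14.5 ± 3.58 to 4.67 ± 1.46 FPKM (SD, n = 3, adjusted p = 0.000821) and in low potassium to 8.53 ± 0.866 (adjusted p = 0.0228). PLC7, a phosphoinositide-specific phospholipase C, fell from 3.65 ± 0.155 FPKM to 1.89 ± 0.370 in cesium and 1.53 ± 0.220 in low potassium (adjusted p = 0.00448 and 0.000825). PLC5, of the same family, rose in cesium from 12.9 ± 0.919 to 19.5 ± 2.02 FPKM (adjusted p = 0.00421), and NPC1 rose in low potassium from 32.0 ± 1.35 to 42.1 ± 3.00 FPKM (adjusted p = 0.0325).

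Markers of root cell types moved with the same groups. The shares to set beside their counts are those of all tested genes. These were 18.8% lower and 18.8% higher in low potassium, and 12.7% lower and 10.8% higher in cesium. Of 11 root hair markers, 9 fell in low potassium and 6 in cesium, their summed level being 365 to 582 FPKM in control, 115 to 361 in low potassium and 172 to 263 in cesium. Of 9 endodermis markers, 6 fell in low potassium and 7 in cesium, with sums of 831 to 993, 456 to 533 and 392 to 488 FPKM. Both markers of non-hair epidermis fell in low potassium and 1 in cesium, and 1 of 2 cortex markers fell in each. None of 7 xylem markers passed. Of 4 meristem markers 2 rose in cesium and 1 fell in low potassium, of 4 phloem markers 2 rose in cesium, and of 4 root cap markers 1 rose in cesium and 1 fell in low potassium. The 3 photosynthesis markers of shoots all rose in cesium, from a sum of 241 to 312 FPKM in control to 781 to 1337, and 2 of them fell in low potassium, to a sum of 155 to 184. No marker was at 0 in all libraries. In whole roots fewer cells of a type and less RNA per cell cannot be told apart, and the part of these shifts in the changes of the C1 genes was not tested.

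The authors' deposited table covers part of the members with a test of its own. It lists 13 members as higher and 54 as lower in low potassium at q under 0.05, among 109 it tested, and 2 as higher and 27 as lower in cesium, among 108. Of the calls made here, 43 of 47 in low potassium and 20 of 20 in cesium also pass in that table in the same direction. The other 4, AT2G28460, AT3G50010, AT4G01740 and AT5G42280, have the same sign in the authors' deposited table with q values of 0.669, 0.229, 0.118 and 0.0589. That table also calls members in low potassium that did not pass here. Among them are AT5G54040 (lower, q = 0.0308), AT2G44370 (higher, q = 0.0017) and AT5G22355 (higher, q = 0.0203). For AT1G20990 the authors' deposited table gives a log2 fold change of 2.36 in low potassium, and for AT1G44050 −3.25. For AT5G43520 and AT1G69150 in cesium the authors' deposited table gives −1.49 and 1.77. These folds carry no pseudocount, whereas log2(FPKM + 1) understates the change of weakly expressed genes.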

How the data were processed

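The authors deposited FPKM per gene for each library, with a status column, and a table of each treatment against control with log2 fold changes, p-values and q-values. Per the submitters' processing notes, the genome was TAIR10 and the tools included STAR 2.5.0c, Bowtie2 2.3.4.1 and Cufflinks 2.2.1, whose roles are not stated there. As the deposited files hold no counts, no depth is given. Summed FPKM per library was 715298 to 845355. The files also give a lower and an upper confidence bound for each FPKM value, which the tests did not use. From 37547 genes, 5 with a failed status were dropped. Genes averaging at least 1 FPKM over all 9 libraries (19536) were tested on log2(FPKM + 1) with limma 3.58.1 (intensity trend, R 4.3.3), 1 model for the 3 groups, Benjamini-Hochberg adjustment per comparison and a threshold of 0.05. The scripts were tested on simulated data.

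Members and lists were chosen with earlier results of these data known. Named members were up to 6 per direction and comparison with the smallest adjusted p, no overlap and at least 1 FPKM in the higher group, the 6 most abundant, AT2G17740 and ULI3, and the longest run, plus up to 3 genes per list and comparison. AT2G16050, AT4G01920, AT3G43890, AT3G45840 and AT1G65180 were added after their values were seen. Sequences come from RefSeq TAIR10.1, in which 125 of the 142 members have the region the files give. There were 18 alternative settings.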

Additional observations from a re-analysis of the deposited data

How the results depend on the processing

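Over 18 alternatives (pseudocounts of 0.1 and 0.5 FPKM, no filter, a filter at 5 FPKM, median-ratio and quantile scaling, 6 libraries per fit, a replicate block, no trend, and each library left out), 202 counts of called genes stayed within 1.5 times their value and 14 moved further. A filter at 5 FPKM, which leaves fewer members to test, gave 0 higher and 5 lower members in cesium, 8 lower in low potassium and 5 higher in cesium than in low potassium. No filter, which tests more members, gave 10 higher and 58 lower members in low potassium, 2 and 23 in cesium, and 32 and 10 in cesium against low potassium. With 1 library left out, cesium gave 2 to 4 higher and 10 to 20 lower members and 1260 to 2308 higher and 1605 to 2480 lower genes of all tested, low potassium gave 4 to 11 higher and 31 to 42 lower members, and cesium against low potassium gave 16 to 24 higher and 5 to 9 lower. Quantile scaling gave 36 lower members in low potassium and 21 in cesium. For named members, 1318 values kept their side of the threshold, 15 gained a call, 19 lost one and 10 changed sign, none of them called. These last ranged, with 1 library left out, in cesium against control from −0.18 to 0.037 (AT1G20990), −0.075 to 0.22 (AT1G55390), −0.21 to 0.049 (EDA11), −0.50 to 0.031 (AT2G44380) and −0.15 to 0.089 (AT4G01910), and between cesium and low potassium from −0.13 to 0.020 (AT5G43520) and −0.023 to 0.20 (ULI3). The causes were not tested. The titles link same-numbered libraries by number alone. Of the 9 correlations of their deviations from group means, 3 exceeded 0.1 (−0.120 to 0.282). Differently numbered libraries gave −0.216 to 0.203. With 3 libraries per group, these values cannot settle whether same-numbered libraries were handled together. With the replicate block, cesium gave 2 higher and 15 lower members, low potassium 8 and 36, and cesium against low potassium 20 and 7. The number of libraries, 3 per group, limits precision, and the lowest members rest on few fragments.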
